A study of Mus musculus with 15 samples.

Results

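Gliogenic transcription factors are the nuclear proteins that turn neural progenitors towards glial fates and stay on in mature astrocytes. A set of 7 such mouse genes was followed through optic nerve injury and was chosen by gene name, namely Nfia, Nfib and Nfix of the nuclear factor I (NFI) family, Sox9 and Sox2 of the Sox family, and Hes1 and Hes5, targets of the Notch receptor. Of these 7, 6 have a row among the 14237 genes of the deposited expression table, and all 6 passed the filter on low counts. Hes5 has no row, so its expression was not analysed, and only its promoter window is described below.

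RNA was sequenced from whole optic nerves of adult C57BL/6J mice in 3 groups of 5 libraries, which the design describes as biological replicates. The crush AAV-CNTF group had received AAV2 (an adeno-associated virus used as a gene carrier) encoding a secretable form of ciliary neurotrophic factor (CNTF) in the vitreous of the eye, 2 weeks before the nerve was crushed, and nerves were collected 7 days after the crush. The crush AAV-null group had the same injury and times with AAV2 carrying no CNTF, and the sham AAV-null group had AAV-null and an exposed but uncrushed nerve, with times that the labels do not give. All 3 groups therefore carry a vector and none is an uninjected nerve. The labels name neither the promoter that drives CNTF nor the cells that carry the vector, and the vector was placed in the eye while the RNA came from the nerve.

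NFI proteins bind DNA as dimers and, in the mouse spinal cord, Nfia and Nfib are needed when progenitors begin to make astrocytes. Sox9, an HMG-box factor, switches on Nfia in the same progenitors and remains a nuclear marker of adult astrocytes, while its relative Sox2 keeps progenitors undifferentiated and persists in astrocytes. Notch receptors, once cleaved, join the DNA-binding protein Rbpj and switch on Hes1 and Hes5, repressors that hold back neuronal genes. CNTF acts through a receptor that activates Stat3, a further driver of astrocyte genes such as Gfap.

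The 6 genes lie on mm10 at chr4:97772734-98118874 on the plus strand (Nfia), chr4:82290173-82705750 on the minus strand (Nfib), chr8:84699876-84800344 on the minus strand (Nfix), chr11:112782224-112787760 on the plus strand (Sox9), chr3:34650405-34652461 on the plus strand (Sox2) and chr16:30064384-30067796 on the plus strand (Hes1), by GENCODE M21. Sox2 lies wholly inside Sox2ot, a long non-coding gene on the same strand, with 0 exonic bases in common. Nfix shares 137 exonic bases with the antisense gene G430095P16Rik, and the labels do not say whether counting used strand.

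Family members resemble each other in protein, so the longest stretch of identical transcript sequence was found for each related pair. Read length and mismatches were not considered, so these runs do not bound how far reads were shared between rows. Nfix had a count that was not whole in some libraries, for example 24426.92 in crush AAV-CNTF replicate 2, and the source of the fraction was not tested. The longest run was 44 bases between Sox9 and Sox10, 32 between Nfix and Nfic and 23 between Sox9 and Sox8. It was 21 between Nfib and Nfix and 20 between Sox9 and Sox2, and all of these runs lay in coding sequence. Nfia and Nfix shared 21 bases outside the coding sequence, the other 4 pairs examined shared 13 to 20, and no pair shared a run of 50 bases. The Sox9 and Sox2 run lies in the coding sequence of the DNA-binding HMG box. The 5 longest coding runs, 5′ to 3′ from the GENCODE M21 transcripts, are these.
Sox9 and Sox10: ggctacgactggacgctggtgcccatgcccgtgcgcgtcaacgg
Nfix and Nfic: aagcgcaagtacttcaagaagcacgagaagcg
Sox9 and Sox8: gtgcagcacaagaaagaccaccc
Nfib and Nfix: atcaagcagaagtgggcatcc
Sox9 and Sox2: cccatgaacgccttcatggt

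Sox2 and Nfix both fell after crush, and their promoter windows, from 250 bases before to 50 after a RefSeq start on GRCm38.p6, are shown because they can be searched for motifs of the factors described here. RefSeq windows were matched for 4 of the 7 genes (Nfia, Nfix, Sox2 and Hes5). Capitals mark TTGGC (the core of an NFI site, either strand), which stands 45 bases before the Sox2 start on chr3:34649745-34650044 and 175 bases before an Nfix start on chr8:84775779-84776078, and in the Nfix window also TTCNNNGAA (the Stat palindrome), 155 bases before the start.
Sox2, plus strand: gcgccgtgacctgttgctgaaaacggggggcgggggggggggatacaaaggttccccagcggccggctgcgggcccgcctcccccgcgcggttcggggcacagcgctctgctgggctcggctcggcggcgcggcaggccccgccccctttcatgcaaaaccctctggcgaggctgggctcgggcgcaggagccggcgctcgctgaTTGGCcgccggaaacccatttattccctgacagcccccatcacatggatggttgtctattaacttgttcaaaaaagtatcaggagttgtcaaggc
Nfix, minus strand: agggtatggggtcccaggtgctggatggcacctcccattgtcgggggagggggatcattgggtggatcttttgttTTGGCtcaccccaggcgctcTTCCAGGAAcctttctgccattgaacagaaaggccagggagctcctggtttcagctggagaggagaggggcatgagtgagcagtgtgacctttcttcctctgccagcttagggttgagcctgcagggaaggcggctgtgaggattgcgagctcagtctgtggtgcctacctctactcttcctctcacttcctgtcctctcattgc
Of 32851 windows of this length, 46.7% hold TTGGC, 8.3% hold TTCNNNGAA and 25.6% hold TGGGAA, the Rbpj core, which neither printed window has. RefSeq starts differ here from the GENCODE starts, and Nfix has 3 other RefSeq windows, of which none holds the Stat palindrome. The window of Nfia, which also fell without CNTF, holds no TTGGC, TTCNNNGAA or TGGGAA. The Hes5 window holds 2 matches of TTGGC and 2 of TGGGAA. Overlap between motifs was not removed, and the matches describe letters only.

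Library totals were 23775487 to 29558293 expected counts in crush AAV-CNTF nerves, 19918858 to 29138927 in crush AAV-null nerves and 19856688 to 26411929 in sham nerves. Crush AAV-null replicate 6 stood apart on the second principal component, at -99.7 against -8.98 to 24.0 for the other 14 libraries. The nerve's glia were present in all groups. Astrocyte markers (17 genes with a row) summed to 9726 to 12174 CPM (counts scaled to a fixed library size) in crush AAV-CNTF nerves, 9019 to 11944 in crush AAV-null nerves and 13985 to 15748 in sham nerves, and oligodendrocyte and myelin markers (20 genes) to 20546 to 29459, 24660 to 33713 and 56229 to 70960 CPM. Microglia and macrophage markers (19 genes) ran the other way, at 5331 to 7947 CPM in crush AAV-CNTF, 6633 to 11073 in crush AAV-null and 1756 to 2481 in sham nerves. These are bulk samples, so fewer cells of a type and less RNA per cell cannot be told apart in any value that follows.

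Levels of different genes can be set against each other per unit of length, as the authors' FPKM (fragments scaled by gene length and depth). On that scale Nfix was the most abundant of the 6, at 199 ± 22.4 FPKM in crush AAV-CNTF, 184 ± 17.5 in crush AAV-null and 214 ± 5.96 in sham nerves (SD, n = 5 each). Nfia followed, at 157 ± 24.0 FPKM in crush AAV-CNTF, 133 ± 11.8 in crush AAV-null and 135 ± 13.2 in sham nerves. Sox9 came next with 103 ± 14.1 FPKM in crush AAV-CNTF, 95.9 ± 18.1 in crush AAV-null and 120.2 ± 9.59 in sham nerves. Sox9, the regulator of Nfia in progenitors, thus stood below both Nfix and Nfia in mean FPKM in all 3 groups.

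Nfib and Sox2 formed a lower tier. Nfib had 45.6 ± 4.49 FPKM in crush AAV-CNTF, 44.9 ± 6.12 in crush AAV-null and 43.3 ± 2.81 in sham nerves, and Sox2 had 37.6 ± 5.03, 39.8 ± 5.50 and 49.3 ± 4.13 FPKM in the same groups. Their order differed by group, with Nfib above Sox2 in both crush groups and Sox2 above Nfib in sham nerves, and in each group their libraries overlapped. Hes1 was lowest everywhere, at 22.7 ± 2.35 FPKM in crush AAV-CNTF, 11.8 ± 3.98 in crush AAV-null and 9.48 ± 3.64 in sham nerves. For Hes1, FPKM and CPM did not keep a fixed proportion between libraries. Crush AAV-CNTF replicate 2 had 13.1 CPM and 19.2 FPKM, while crush AAV-null replicate 3 had 13.5 CPM and 11.7 FPKM. The cause was not tested, so Hes1 differences between groups on FPKM can differ from those on counts. Neighbours whose libraries also overlapped were Nfix and Nfia in crush AAV-CNTF, Nfia and Sox9 in crush AAV-CNTF and Nfia and Sox9 in sham nerves.

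**Figure D1:**
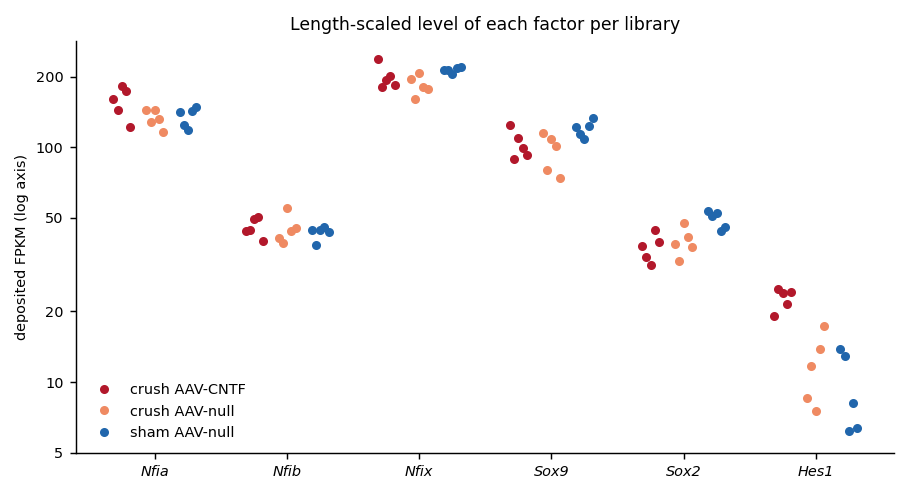
FPKM (log axis) of the 6 genes in each library of the crush AAV-CNTF, crush AAV-null and sham AAV-null groups. Nfix has the highest mean in each group and Hes1 the lowest. The Hes1 libraries of crush AAV-CNTF nerves (19.2 to 24.8 FPKM) sit above those of crush AAV-null nerves (7.55 to 17.3 FPKM). On CPM the Hes1 ranges of these groups overlap. Hes1 was called different between them neither on counts (edgeR adjusted p = 0.407) nor on FPKM (limma adjusted p = 0.258). The share of all genes so separated on FPKM is not given here.

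Within a gene, groups were compared on CPM scaled by TMM (a correction for library composition). Without CNTF, Nfia, Nfix, Sox9 and Sox2 were lower after crush than after sham, Nfib and Hes1 missed the threshold, and none of the 6 was called higher. The sizes were moderate, with Sox9 at 0.71 of its sham level and Nfia at 0.84. The calls were 4 lower and 0 higher of 6 genes, against 12.9% of all 14194 genes tested called lower and 14.7% called higher (27.6% in either direction). The median log2 fold change of the 6 was -0.34, and that of all genes tested 0.005. The members were chosen with earlier results of these data known, so such contrasts with all genes, here and below, do not test the set.

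Sox9 had 445, 289, 403, 396 and 285 CPM in crush AAV-null replicates 2 to 6, against 526, 509.6, 449.8, 516 and 563 CPM in sham replicates 2 to 6. The highest crush library lay just under the lowest sham library, and replicates 3 and 6 were lowest. The log2 fold change was -0.50 ± 0.12 (SE, edgeR adjusted p = 0.00405). Sox2, the progenitor factor, had 70.4, 55.7, 83.2, 77.2 and 67.8 CPM in crush AAV-null nerves, against 108, 107, 102, 87.4 and 91.0 CPM in sham nerves. Its groups did not overlap either, and the log2 fold change was -0.48 ± 0.12 (edgeR adjusted p = 0.00446).

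Nfix, the NFI member with the highest level, had 815, 651, 828, 771 and 679 CPM in crush AAV-null nerves, against 1038, 975, 939, 1052 and 1026 CPM in sham nerves. Every crush library was below every sham library (log2 fold change -0.43 ± 0.095, edgeR adjusted p = 0.00178). Nfia, which starts the gliogenic programme in the mouse spinal cord, had 480.4, 392, 497, 468 and 389 CPM in crush AAV-null nerves, against 554, 503, 500.5, 539 and 564 CPM in sham nerves. The 2 groups were parted by a narrow gap, between 497 and 500.5 CPM, and the log2 fold change was -0.26 ± 0.091 (edgeR adjusted p = 0.0395). That call was lost when any of 5 libraries was left out (crush AAV-null replicate 3 or 6, sham replicate 2, 5 or 6), with an edgeR adjusted p of up to 0.109. All 4 calls lower were of genes whose groups did not overlap, and 10.1% of all genes tested were lower without overlap.

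Nfib, the partner of Nfia in astrocyte formation, had 216, 176, 234, 217 and 265 CPM in crush AAV-null nerves, against 264, 251, 266, 258 and 243 CPM in sham nerves. Crush AAV-null replicate 6 lay inside the sham range and the others below it, and the log2 fold change of -0.21 ± 0.10 missed the threshold (edgeR adjusted p = 0.150). Hes1, the Notch target, had 8.75, 13.5, 8.93, 10.7 and 13.2 CPM in crush AAV-null nerves, against 12.2, 9.09, 8.19, 7.29 and 8.66 CPM in sham nerves. The ranges overlapped (log2 fold change 0.28 ± 0.22, edgeR adjusted p = 0.396).

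**Figure D2:**
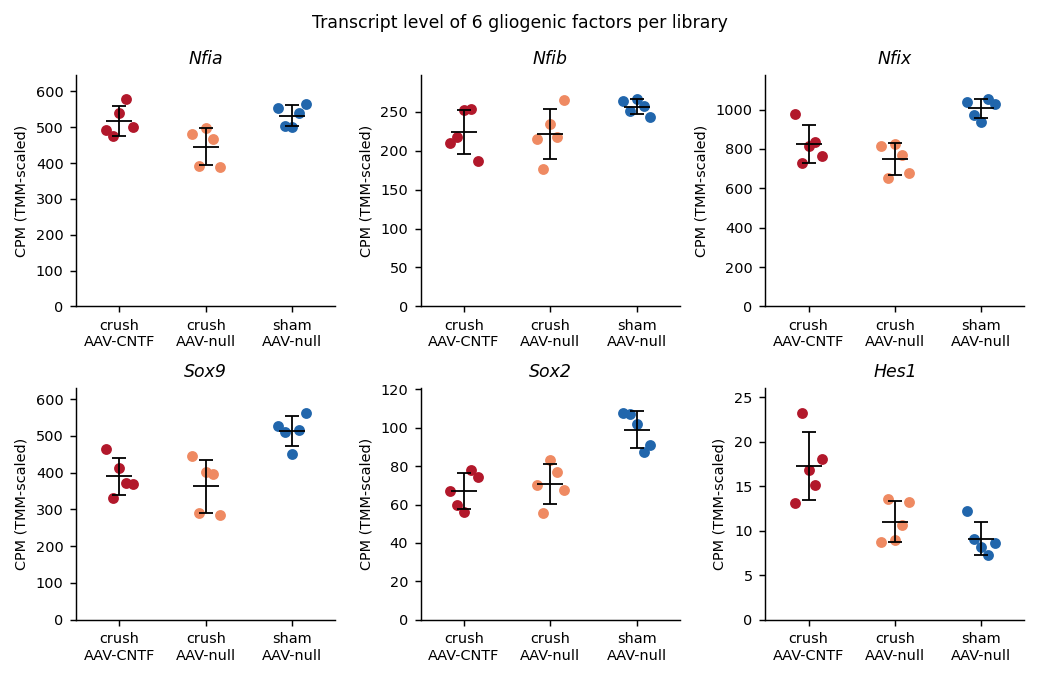
CPM of each gene by library (points) in crush AAV-CNTF, crush AAV-null and sham AAV-null nerves, with the group mean and SD (n = 5 each, axes from 0). Sox2 is lower in all 10 crush libraries than in any sham library, and Hes1 is higher in every crush AAV-CNTF library (13.1 to 23.2 CPM) than in any sham library (7.29 to 12.2 CPM).

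In crushed nerves whose eyes carried CNTF, Sox2, Sox9 and Nfix were again below sham, and Hes1 was above it. The calls were 3 lower and 1 higher of 6, against 14.3% of all genes tested called lower and 17% called higher (31.3% in either direction), with a median log2 fold change of -0.24 for the 6 and 0.005 for all genes. This comparison uses the same sham libraries as the preceding one, so the 2 are not independent.

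Hes1 had 13.1, 23.2, 16.8, 15.1 and 18.0 CPM in crush AAV-CNTF nerves, against 12.2, 9.09, 8.19, 7.29 and 8.66 CPM in sham nerves. All 5 nerves with CNTF were above all 5 sham nerves, and 11.9% of all genes tested were higher without overlap. The fold was 1.90 (95% interval 1.38 to 2.62, log2 fold change 0.93 ± 0.22, edgeR adjusted p = 0.00283). It kept its call without any single library, with a log2 fold change of 0.80 to 1.05. In the authors' deposited table Hes1 had a log2 fold change of 0.93 for this pair with an adjusted p of 0.00124, and is marked there as up-regulated. The authors' deposited table marks no other member as regulated, yet it gives adjusted p-values under 0.05 and falls close to those above for Nfix (adjusted p = 1.64e-06), Sox9 (0.000383), Sox2 (0.00192) and Nfia (0.0203) in crush AAV-null over sham, and for Nfix (0.00601), Sox9 (0.000867) and Sox2 (9.46e-05) in crush AAV-CNTF over sham. The rule behind those marks is not stated in the table.

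Sox2 had 66.9, 59.7, 55.9, 78.1 and 74.3 CPM in crush AAV-CNTF nerves, against the sham values of 87.4 to 108 CPM. The groups did not overlap, as for 11.2% of all genes tested in this direction, and the log2 fold change was -0.57 ± 0.12 (edgeR adjusted p = 0.00110). Sox9 had 465, 332, 413, 372 and 370.0 CPM in crush AAV-CNTF nerves, against 449.8 to 563 CPM in sham nerves. Replicate 2 lay inside the sham range and the other 4 below it, with a log2 fold change of -0.39 ± 0.12 (edgeR adjusted p = 0.0179). Without crush AAV-CNTF replicate 3 that call was lost, at -0.34 (edgeR adjusted p = 0.0559).

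Nfix had 979, 729.9, 813, 834 and 765 CPM in crush AAV-CNTF nerves, against 939 to 1052 CPM in sham nerves. Replicate 2 again overlapped the sham libraries, and the log2 fold change was -0.29 ± 0.095 (edgeR adjusted p = 0.0254). It missed the threshold without any of crush AAV-CNTF replicates 3 and 6 and sham replicates 2, 5 and 6, where the edgeR adjusted p reached 0.0747. Nfia had 491, 476, 539, 578 and 499 CPM in crush AAV-CNTF nerves, against 500.5 to 564 CPM in sham nerves, and Nfib had 210.3, 217, 253, 253 and 187 CPM, against 243 to 266 CPM. Both overlapped their sham ranges. Their log2 fold changes were -0.04 ± 0.091 for Nfia (edgeR adjusted p = 0.773) and -0.19 ± 0.10 for Nfib (edgeR adjusted p = 0.175).

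What CNTF changed in the crushed nerve was asked directly by setting the 2 crush groups against each other. None of the 6 genes passed the threshold (0 of 6, against 0.0564% of all genes tested), and none did with DESeq2 either. At an unadjusted p under 0.05 there were 2 of them, Hes1 and Nfia, both higher with CNTF, against 7.69% of all genes at that level and 3.94% higher. The median log2 fold change of the 6 was 0.12, and that of all genes -0.003. DESeq2 called 83 genes here and edgeR 8, so the number of genes called in this comparison depends on the tool.

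Hes1 averaged 17.3 ± 3.82 CPM in crush AAV-CNTF nerves and 11.0 ± 2.27 CPM in crush AAV-null nerves (SD, n = 5 each). Its fold was 1.57 with a 95% interval of 1.14 to 2.16, and crush AAV-CNTF replicate 2 (13.1 CPM) fell inside the crush AAV-null range of 8.75 to 13.5 CPM (edgeR adjusted p = 0.407, unadjusted 0.00812). Nfia averaged 517 ± 41.4 CPM with CNTF and 445 ± 51.3 CPM without it, with overlap (log2 fold change 0.21 ± 0.091, edgeR adjusted p = 0.561, unadjusted 0.0283). Nfix (log2 fold change 0.14 ± 0.095), Sox9 (0.10 ± 0.12), Nfib (0.02 ± 0.10) and Sox2 (-0.08 ± 0.12) had edgeR adjusted p-values from 0.824 to 0.987. Their 95% intervals, as folds, were 0.96 to 1.26 for Nfix, 0.90 to 1.28 for Sox9, 0.87 to 1.18 for Nfib and 0.79 to 1.13 for Sox2.

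**Figure D3:**
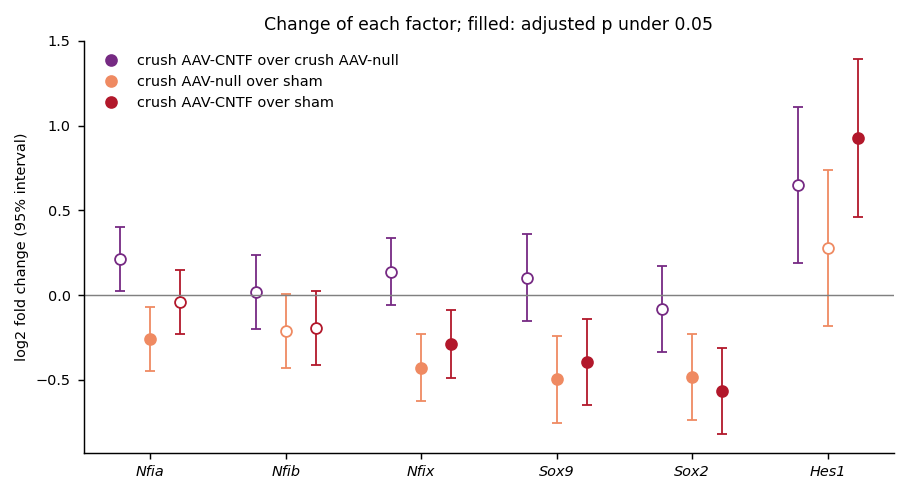
Log2 fold change of each gene, with its 95% interval, for crush AAV-CNTF over crush AAV-null, crush AAV-null over sham and crush AAV-CNTF over sham (filled points passed an edgeR adjusted p of 0.05). No interval of the first comparison is filled, Sox9, Sox2 and Nfix are filled below 0 in both comparisons with sham, Nfia in that without CNTF, and Hes1 is filled above 0 in the last.

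The lower levels after crush depended on the scale. On the authors' FPKM, tested with limma on log2(FPKM + 1), an alternative chosen after the data were seen, the median of all genes was itself shifted by 0.158 in crush AAV-null over sham and 0.156 in crush AAV-CNTF over sham. No member was then called lower in the crush AAV-null comparison (Sox9 -0.34, limma adjusted p = 0.077; Sox2 -0.31, limma adjusted p = 0.0816; Nfix -0.22, limma adjusted p = 0.108; Nfia -0.02, limma adjusted p = 0.914). Relative to the shifted median their changes were -0.50, -0.47, -0.38 and -0.18. In crush AAV-CNTF over sham, Sox2 (-0.39, limma adjusted p = 0.028) and Hes1 (1.24, limma adjusted p = 0.00124) passed on FPKM, while Sox9 (-0.23) and Nfix (-0.11) did not. Relative to the shifted median of that comparison, Sox2 was at -0.54, Sox9 at -0.38, Nfix at -0.26 and Hes1 at 1.09. Hes1 thus still stood above its value of 0.93 on counts. Calls over all genes split into 2346 higher and 862 lower on FPKM against 2087 and 1825 on counts in crush AAV-null over sham, and 2573 and 1007 against 2406 and 2031 in crush AAV-CNTF over sham.

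Astrocyte markers also fell after crush. Over all genes, 12.9% were lower in crush AAV-null over sham and 14.3% in crush AAV-CNTF over sham. Of 17 astrocyte markers tested, 13 were lower and 0 higher in crush AAV-null over sham, and 10 lower and 0 higher in crush AAV-CNTF over sham, with Gfap at 3093 ± 254 CPM in crush AAV-CNTF, 3092 ± 399 in crush AAV-null and 4299 ± 238 in sham nerves. With the mean level of that list as a covariate, 0 members passed in either comparison with sham (Sox9 -0.29, Nfix -0.38, Sox2 -0.34 and Nfia -0.22 in crush AAV-null over sham, and Hes1 0.92 in crush AAV-CNTF over sham, edgeR adjusted p = 0.283). The list's mean log2 CPM ran from 7.59 to 7.99 over the crush libraries and from 8.04 to 8.34 over the sham libraries, so injury and astrocyte marker level cannot be told apart by that fit. Of 20 oligodendrocyte and myelin markers, 19 were lower and 0 higher in each comparison with sham (median log2 fold change -1.01 without CNTF and -1.23 with it). Of 19 microglia and macrophage markers, 17 were higher and 0 lower in each. The part of these cell types in these results was not tested.

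Each gene was also expressed as its log2 CPM minus the mean of the astrocyte list in the same library. On this measure Sox9 was 0.79 ± 0.20 in crush AAV-CNTF, 0.69 ± 0.25 in crush AAV-null and 0.73 ± 0.18 in sham nerves, and Sox2 was -1.75 ± 0.30, -1.65 ± 0.15 and -1.65 ± 0.11. For both, the group means differed by less than the SD within a group. Nfia stood at 1.201 ± 0.22, 1.00 ± 0.12 and 0.78 ± 0.16, and Nfib at -0.01 ± 0.27, -0.01 ± 0.19 and -0.27 ± 0.15, in the order crush AAV-CNTF, crush AAV-null and sham. Nfix was at 1.87 ± 0.23, 1.75 ± 0.11 and 1.70 ± 0.18. Hes1 had the widest range, at -3.72 ± 0.31 in crush AAV-CNTF, -4.34 ± 0.39 in crush AAV-null and -5.10 ± 0.24 in sham nerves. These relative values are descriptive and were not tested.

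**Figure D4:**
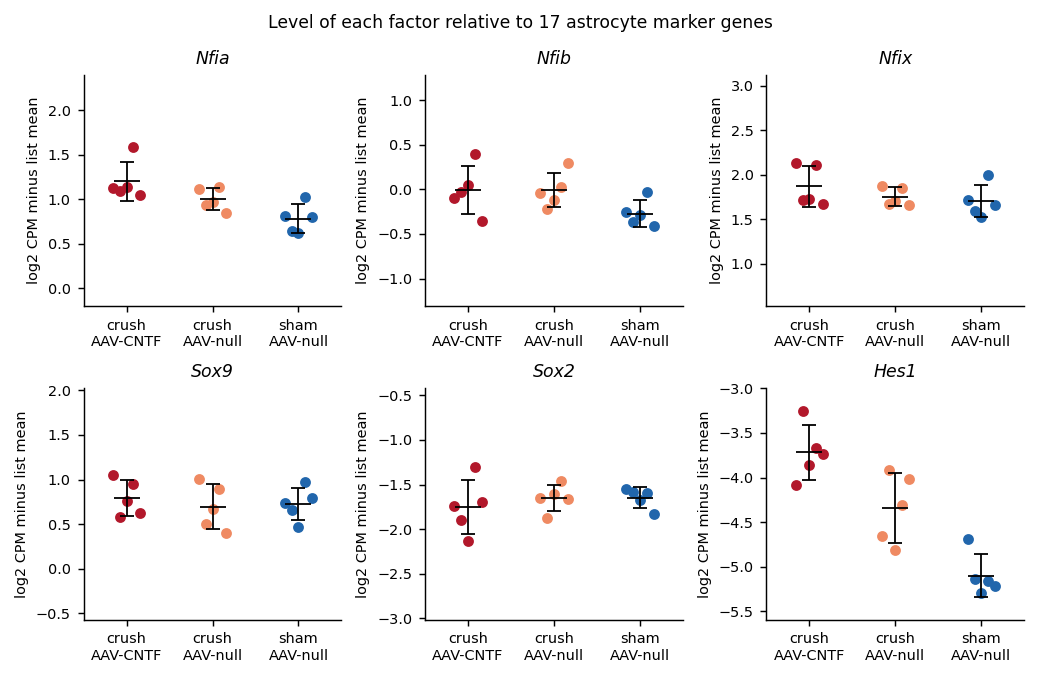
Log2 CPM of each gene minus the mean log2 CPM of 17 astrocyte markers in the same library, by group, with mean and SD (n = 5 each). Hes1 lies higher in crush AAV-CNTF nerves (mean -3.72) than in sham nerves (mean -5.10), while Sox9 and Sox2 lie at similar heights in the 3 groups.

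The Notch pathway upstream of Hes1 was examined from the receptor down. The counts in this and the following lists are read against 14.7% of all genes higher and 12.9% lower in crush AAV-null over sham, and 17% higher and 14.3% lower in crush AAV-CNTF over sham. Of 11 ligands and receptors tested, 0 were called in crush AAV-CNTF over crush AAV-null, 1 was higher and 0 lower in crush AAV-null over sham (Notch4), and 3 were higher and 0 lower in crush AAV-CNTF over sham (Jag1, Notch3 and Notch4). This is below the share of all genes called in either direction in crush AAV-null over sham (27.6%) and near it in crush AAV-CNTF over sham (31.3%). Jag1, a Notch ligand, averaged 47.9 ± 15.1 CPM in crush AAV-CNTF, 35.1 ± 4.33 in crush AAV-null and 24.2 ± 6.93 in sham nerves (log2 fold change 0.99 for crush AAV-CNTF over sham, edgeR adjusted p = 0.00122). Notch4, a receptor known from endothelial cells, averaged 19.3 ± 3.35 CPM in crush AAV-CNTF, 27.7 ± 6.49 in crush AAV-null and 9.12 ± 1.54 in sham nerves. Notch3, a receptor of vascular mural cells, rose in crush AAV-CNTF over sham (33.3 ± 12.4 against 19.9 ± 4.97 CPM, log2 fold change 0.74, edgeR adjusted p = 0.0245). The receptors Notch1 (182 ± 30.0, 166 ± 19.7 and 187 ± 11.7 CPM in crush AAV-CNTF, crush AAV-null and sham) and Notch2 (265 ± 26.7, 243 ± 39.9 and 253 ± 25.1 CPM) passed no test. The cells that express each receptor cannot be told from bulk nerve.

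Among 31 genes that process the receptor or modulate it, 4 were higher and 5 lower in crush AAV-null over sham, 4 higher and 3 lower in crush AAV-CNTF over sham, and 0 called between the crush groups. In crush AAV-null over sham this is near the share over all genes, and in crush AAV-CNTF over sham below it. The sheddase Adam17 (82.3 ± 10.04, 79.8 ± 6.89 and 46.3 ± 4.83 CPM in crush AAV-CNTF, crush AAV-null and sham), its relative Adam10 (215 ± 8.88, 214 ± 13.5 and 145 ± 21.9 CPM) and the gamma-secretase subunit Ncstn (99.0 ± 4.55, 107 ± 7.61 and 69.2 ± 7.60 CPM) rose in both comparisons with sham. Rbpj, the DNA-binding partner of cleaved Notch, passed the threshold in crush AAV-CNTF over sham (118 ± 16.5 against 93.1 ± 8.61 CPM, log2 fold change 0.34, edgeR adjusted p = 0.0179). Dtx1, a Deltex ubiquitin ligase that binds Notch, fell in both (28.1 ± 3.41, 26.1 ± 2.70 and 56.0 ± 12.02 CPM).

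A further list of 11 tested genes held other Hes and Hey repressors, Tle co-repressors, and the bHLH factors Bhlhe40 and Bhlhe41. In crush AAV-null over sham 1 was higher (Bhlhe40) and 1 lower (Tle4). In crush AAV-CNTF over sham 2 were higher (Heyl and Bhlhe40) and 1 lower (Tle4). Of its Hes and Hey genes (Hes3, Hes6, Hey1, Hey2 and Heyl), only Heyl was called, and only in crush AAV-CNTF over sham. Heyl, a Notch target known from vascular mural cells, averaged 42.9 ± 21.1 CPM in crush AAV-CNTF, 28.8 ± 6.10 in crush AAV-null and 19.3 ± 3.08 in sham nerves (log2 fold change 1.15 for crush AAV-CNTF over sham, edgeR adjusted p = 0.00156). Hes6, which antagonises Hes1, had 6.84 ± 2.84, 4.74 ± 1.44 and 3.83 ± 1.78 CPM in the same order and passed no test.

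Hes1 is also expressed by vascular cells. Calls among their markers in crush AAV-CNTF over sham were near the share of all genes called in either direction (31.3%). Of 13 endothelial markers, 1 was higher in crush AAV-CNTF over crush AAV-null, Plvap (53.7 ± 16.6 against 18.6 ± 4.62 CPM, edgeR adjusted p = 0.0127), and 3 were higher and 2 lower in crush AAV-CNTF over sham. The list summed to 484 to 766 CPM in crush AAV-CNTF, 457 to 545 in crush AAV-null and 529 to 589 in sham nerves. Of 10 pericyte and smooth muscle markers, 3 were higher and 0 lower in crush AAV-CNTF over sham, with sums of 457 to 907, 506 to 649 and 400.3 to 574 CPM in the 3 groups. Without CNTF, in crush AAV-null over sham, where Hes1 was not called, endothelial markers held 1 higher and 3 lower. Pericyte and smooth muscle markers held 4 higher and 2 lower there. Other lists moved more in crush AAV-CNTF over sham. Fibroblast and meningeal markers held 9 higher and 2 lower of 14 (median log2 fold change 1.44), cell cycle markers 20 higher of 20 (median 3.19), microglia and macrophage markers 17 higher of 19 (median 1.68) and early stress genes that dissection can induce 5 higher and 0 lower of 12 (median 0.35). Fibroblast and meningeal markers held 7 higher and 1 lower in crush AAV-null over sham (median 0.99). Cell cycle markers held 20 higher there (median 3.27), and microglia and macrophage markers 17 higher (median 1.93). Early stress genes held 4 higher and 1 lower (median 0.35). The part of any of these cell types or responses in the Hes1 result was not tested.

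Other Sox and NFI genes moved in both directions. Of 16 genes tested, counting the non-coding Sox2ot, 1 rose in crush AAV-null over sham (Sox4). In that comparison 7 fell (Sox1, Sox3, Sox5, Sox8, Sox10, Sox13 and the non-coding Sox2ot). The counts were the same in crush AAV-CNTF over sham, and 0 were called between the crush groups. Sox4, a factor of immature neural cells, had 125 ± 13.5 CPM in crush AAV-CNTF, 143 ± 8.02 in crush AAV-null and 39.5 ± 11.0 in sham nerves (log2 fold change 1.85 for crush AAV-null over sham, edgeR adjusted p = 1.43e-08). Sox2ot, the gene around Sox2, fell further than Sox2, to 64.2 ± 4.72 CPM in crush AAV-CNTF and 78.2 ± 12.3 in crush AAV-null, against 167 ± 13.0 in sham nerves. Its log2 fold changes were -1.38 and -1.09 over sham, beside -0.57 and -0.48 for Sox2. Sox10, the oligodendrocyte lineage factor that shares the longest run with Sox9, had 305 ± 53.7, 318 ± 29.5 and 441 ± 65.6 CPM. The fourth NFI gene, Nfic, had 559 ± 25.2, 536 ± 32.6 and 487 ± 28.2 CPM and passed no test.

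Other transcription factors of astrocyte fate (31 tested) held 3 higher and 11 lower genes in crush AAV-null over sham and 5 higher and 13 lower in crush AAV-CNTF over sham. Id4, an inhibitor of bHLH factors, was among the lower ones, with 83.4 ± 6.06 CPM in crush AAV-CNTF and 94.1 ± 15.7 in crush AAV-null, against 210 ± 26.3 in sham nerves. Atf3, a stress-induced factor (18.2 ± 5.04, 27.4 ± 6.43 and 9.64 ± 3.02 CPM), and Runx2 (13.7 ± 5.55, 11.9 ± 1.47 and 4.34 ± 1.55 CPM) were among the higher ones. Stat3, which carries the CNTF signal, had 219 ± 17.3 CPM in crush AAV-CNTF, 182 ± 14.6 in crush AAV-null and 193 ± 6.70 in sham nerves, with an edgeR adjusted p of 0.316 between the crush groups.

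Genes that are known from mouse studies to depend on NFI or Sox9 in astrocytes (20 tested, 13 of them also astrocyte markers above) held 2 higher and 12 lower genes in crush AAV-null over sham and 1 higher and 10 lower in crush AAV-CNTF over sham. S100b fell to 297 ± 42.2 CPM in crush AAV-CNTF and 346 ± 64.6 in crush AAV-null, against 612 ± 39.1 in sham nerves. Ttyh1, a membrane protein of astrocytes, fell to 210 ± 12.7 and 182 ± 20.3 CPM, against 360 ± 26.7. Apoe, which macrophages also make, rose to 11283 ± 2644 CPM in crush AAV-CNTF and 13105 ± 1030 in crush AAV-null, against 6474 ± 530 in sham nerves. Fabp7 was also higher in crush AAV-null over sham (27.3 ± 5.74 against 17.3 ± 4.45 CPM, log2 fold change 0.66, edgeR adjusted p = 0.0286). It had 22.9 ± 6.03 CPM in crush AAV-CNTF nerves and was not called there over sham.

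Factors of the oligodendrocyte lineage and proneural factors (17 tested) held 1 higher and 10 lower genes in crush AAV-null over sham and 0 higher and 10 lower in crush AAV-CNTF over sham. Olig2 had 101 ± 22.1, 103 ± 13.2 and 150 ± 17.9 CPM in crush AAV-CNTF, crush AAV-null and sham nerves. Neural progenitor and radial glia markers (18 tested) were split, at 7 higher and 7 lower in crush AAV-null over sham and 5 higher and 6 lower in crush AAV-CNTF over sham. Tnc, an extracellular matrix protein, rose to 166 ± 42.9 and 143 ± 17.1 CPM in the crush groups with and without CNTF, against 23.6 ± 13.9 in sham nerves, while Fgfr2, a growth factor receptor, fell to 86.8 ± 9.27 and 93.5 ± 15.6, against 205 ± 23.1. Between the crush groups these lists held 0 called genes.

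**Figure D5:**
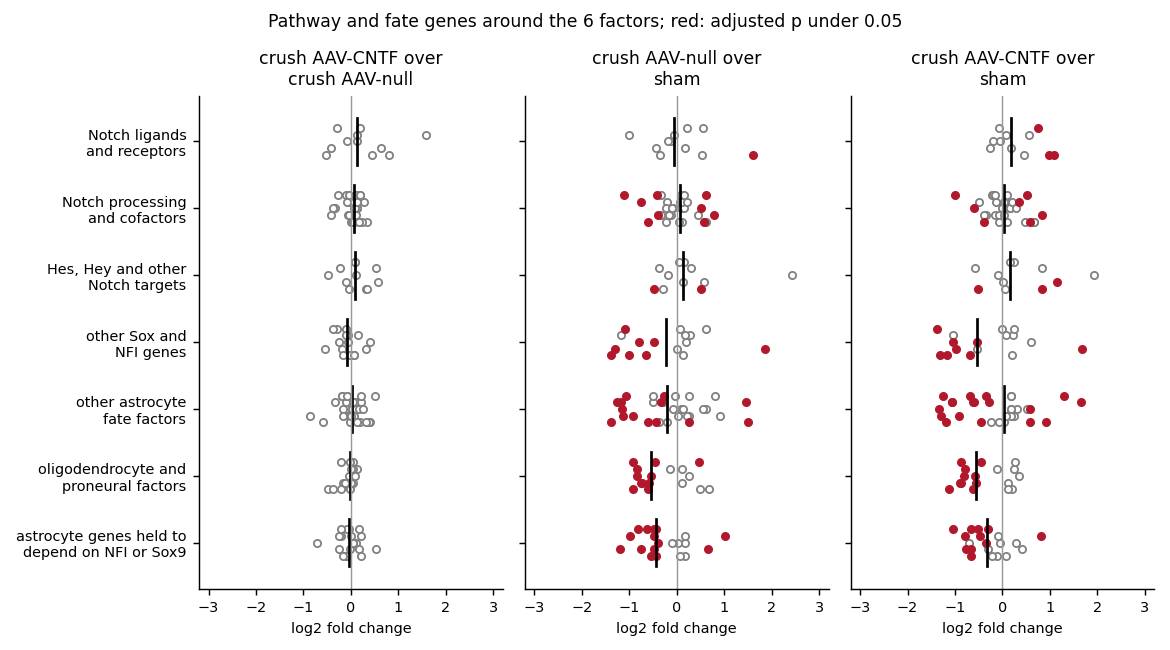
Log2 fold change of each tested gene (points) of 7 pathway and fate lists in crush AAV-CNTF over crush AAV-null, crush AAV-null over sham and crush AAV-CNTF over sham. Filled red points passed an edgeR adjusted p of 0.05, open grey points did not, and black bars are list medians. No point is filled between the crush groups. In the list of other Sox and NFI genes, 7 points, with the non-coding Sox2ot among them, are filled below 0 in each comparison with sham.

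Genes with the profile most like each member over the 15 libraries were found by the root mean square difference of centred log2 CPM, a description that reflects library effects as well as groups. Nearest to Sox9 was Nfix, at 0.11, followed by Sik3 and Ncam1. Nearest to Nfix were Sik3 (0.088), Stox2 and Fermt2. Nfia was closest to Ylpm1 (0.10), Nfib to Tcf4 (0.10) and Sox2 to Scap (0.094). Hes1 had no profile as near, with Wdr36 at 0.24 followed by Rhoj and Sec61b. On FPKM the nearest genes were different for Nfia, Nfib, Nfix and Hes1, while Sox9 kept Nfix and Ncam1 among its 3 nearest.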

How the data were processed

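The tools named in the submitters' processing notes are Trimmomatic 0.32, STAR 2.5.3a, RSEM 1.2.31, R 3.2.3 and DESeq2, with mm10 as the build. The labels' protocols name 2 library kits without saying which libraries used which. Per the file headers, the authors deposited an RSEM expected count and an FPKM value per gene and library, and a log2 fold change and adjusted p-value for each pair of groups. All genes in the table reach 1 FPKM or more in 4 or more libraries of some group, so weakly expressed genes are absent.

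Expected counts were rounded (13.7% to 18.3% per library were not whole) and tested with edgeR 4.0.16 under R 4.3.3 (TMM, filterByExpr, quasi-likelihood test, 1 model over 15 libraries, 12 residual degrees of freedom). This tested 14194 genes, with Benjamini-Hochberg adjustment per comparison and 0.05 as the threshold, and the steps were checked on simulated counts. The biological coefficient of variation was 0.371. CPM is on TMM-scaled totals and log2 CPM has a prior count of 2. Alternatives used limma 3.58.1 and DESeq2 1.42.0. Correlations of deviations between same-numbered libraries were -0.05 to 0.11, so libraries were not treated as paired, and the smallest chi-square per degree of freedom within a group was 40.7, so none were duplicates.

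The members and gene lists were chosen with earlier results of these data known. Genes named are all members, up to 3 genes in each direction per list with the largest change in crush AAV-null over sham, a fixed set of Notch and glial genes, and the 3 nearest profiles per member. Others (Notch3, Heyl, Plvap and genes named beside a count of calls) were chosen after their values were seen.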

Additional observations from a re-analysis of the deposited data

How the results depend on the processing

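Leaving out 1 library at a time changed 11 calls of single members to below the threshold and kept the direction and side of 166 of the 180 values. Over these 10 settings per comparison, crush AAV-CNTF over crush AAV-null called 1 to 41 genes (8 with all libraries), the lowest without crush AAV-null replicate 2 or 4 and the highest without crush AAV-CNTF replicate 6. Crush AAV-null over sham called 3483 to 3863 genes and 3 to 4 members lower, and crush AAV-CNTF over sham called 3900 to 4343 genes and 1 to 3 members lower, with 1 member lower without crush AAV-CNTF replicate 3.

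In crush AAV-CNTF over crush AAV-null the count was also 1 with only the 10 libraries compared, 16 with a replicate block, 5 with limma-voom, 3 on FPKM, 83 with DESeq2 and 2 without the pair of crush AAV-null replicate 6 plus crush AAV-CNTF replicate 4. The replicate block changed no call of a member, nor did RLE or upper quartile normalization, the other filters on low counts, leaving out the most abundant and mitochondrial genes, limma-voom or DESeq2. With the astrocyte list as a covariate the counts were 570 genes in crush AAV-null over sham and 884 in crush AAV-CNTF over sham (3912 and 4437 without it), with 0 members lower in either and 0 higher. On FPKM 0 members were lower in crush AAV-null over sham and 1 in crush AAV-CNTF over sham. The cause of these differences was not tested.

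Nfib turned direction in crush AAV-CNTF over crush AAV-null, to -0.0029 with upper quartile normalization and to a range of -0.055 to 0.089 over the libraries left out, below 0 without crush AAV-CNTF replicate 4 (-0.029) or 5 (-0.031) or crush AAV-null replicate 3. On FPKM, where the median of all genes was itself shifted upward, it was 0.043 in crush AAV-null over sham and 0.070 in crush AAV-CNTF over sham, where Nfia was 0.21. Relative to those medians Nfib stayed lower, at -0.12 and -0.09, and Nfia was at 0.05. Nfia also lost its call in crush AAV-null over sham with only the 10 libraries compared (edgeR adjusted p = 0.0507). Without that pair of libraries, Nfia was at -0.21 (edgeR adjusted p = 0.116) and Nfib passed at -0.28 (edgeR adjusted p = 0.0474). Hes1 has the lowest counts of the 6 genes and the widest relative spread between libraries.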
